A study of Mus musculus with 11 samples.

Results

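The 11 libraries were compared here as 8 libraries of *Txndc5*-edited AML12 cells against 3 libraries of wild-type (WT) AML12 cells, to describe what separated WT from both edited lines whatever their *Txndc5* level. AML12 (alpha mouse liver 12) is a mouse hepatocyte line. The 4 KO libraries (5, 6, 7 and 8) carry the genotype label TXNDC5 Knockdown, and the study's methods describe these cells as puromycin-selected stable clones in which CRISPR/Cas9 cutting in exon 5 was joined to a puromycin resistance cassette. The 4 KI libraries (5, 6, 7 and 8) carry the genotype label TXNDC5 Knockin, which the series text describes as overexpression from the ROSA26 safe harbour. How many clones each line held, and whether KI cells were selected with puromycin, is not given in the sources used here. No age, treatment or time point separates the groups, and all 11 libraries were made from polyadenylated RNA of cells cultured without a stated treatment. The WT libraries are numbered 5-6, 7 and 8. What both edited lines shared beside an edit (transfection, selection, cloning, further passages) cannot be told apart from editing in this design.

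A gene was kept as a member when the mean of KO and KI against WT passed an adjusted p of 0.05 (edgeR quasi-likelihood test, Benjamini-Hochberg over all genes tested) and when the library-size-scaled count (CPM, with trimmed-mean scaling, TMM, between libraries) of all 8 edited libraries lay above, or all below, the 3 WT libraries. Of the 13948 genes that passed the filter on low counts, out of 24849 named genes and newly assembled transcripts, 7431 (53.3%) were called, 3500 higher (25.1%) and 3931 lower (28.2%) in edited cells. Members numbered 3701 (26.5% of the genes tested), with 1939 higher (13.9%) and 1762 lower (12.6%). The non-overlap was read from the same values as the test, so that it describes the members and adds no support to them. The median log2 fold change of the higher members was 0.86 and that of the lower members -1.16, and 1758 members changed by more than 1 on the log2 scale, 723 up and 1035 down. Close to the threshold, LOC115486443 was just outside it (log2 fold change -1.60, adjusted p = 0.0501). A further 3730 called genes overlapped between edited and WT libraries, and 55 genes did not overlap but were not called.

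The WT library 8 stood nearer to the edited libraries than the other WT libraries did. Its root-mean-square distance in log2(CPM + 1) was 0.872 to the KO and 0.691 to the KI libraries, against 0.979 and 0.776 for WT 5-6 and 0.951 and 0.748 for WT 7. Without it, 5802 genes instead of 3701 fulfilled the member rule, 2945 above and 2857 below WT, of 14300 tested. Fewer WT libraries make the rule easier to fulfil, so list counts without WT 8 stand beside these numbers. A single newly assembled transcript took 11.3 to 17.1% of all counts in the WT libraries and 4.32 to 9.12% in the edited libraries. An exact two-sided permutation test gave p = 0.0121, the smallest that 8 against 3 libraries allow, and p = 0.0162 adjusted over 4 measures. That test takes single libraries as units although the libraries of a line belong together, so it describes these libraries and not editing in general. Scaling by library totals instead of TMM shifted the all-gene median log2 fold change from -0.04 to 0.32 and the share of called genes that were higher from 47.1% to 73.1%. All values below are on the TMM scale. Where library totals changed a direction or a call of a named gene in the mean of both lines against WT, this is stated beside it. With library totals, the member rule was fulfilled by 3349 genes above and 864 below WT. The shares used below as a reference, 13.9% and 12.6% for members and 25.1% and 28.2% for calls, therefore hold for TMM.

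The targeted gene came first as a check of the labels. *Txndc5*, which encodes an endoplasmic reticulum protein disulfide isomerase, was at 10.2, 8.50, 12.9 and 9.39 CPM in the KO libraries, 147, 138 and 143 in WT and 158, 179.5, 176 and 163 in KI. The KO libraries were far below the other 7, while the KI libraries lay just above WT, so edited and WT libraries overlapped and *Txndc5* was not a member. The log2 fold change was -3.80 ± 0.14 for KO (adjusted p = 1.6e-11) and 0.24 ± 0.13 for KI (adjusted p = 0.13). On the TMM scale the labelled knock-in was therefore not distinguished from WT in the transcript counted here. Raw counts were 3299, 3429 and 4046 in WT and 5654, 6511, 6723 and 5344 in KI, so that all KI counts were above WT. Total counts per library were 29840366 to 30364098 in WT and 32360709 to 35335070 in KI. The KI contrast of this gene was not checked with library totals. The members are therefore genes that moved one way both in a line with little *Txndc5* mRNA and in a line whose *Txndc5* level was not distinguished from WT on this scale.

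The largest shared changes are given by library. They were ordered by the smaller of the KO and KI changes among annotated genes with at least 4 CPM in one group. Among the 12 that rose most, *Cdc6*, *Orc1*, *Mcm5*, *Mcm10*, *Polq* and *Recql4* encode proteins of DNA replication or repair, and the others include *Ccl7*, a chemokine that draws monocytes. *Ccl7* stood at 28.6, 27.7, 29.7 and 20.2 CPM in the KO libraries, 3.57, 2.74 and 1.45 in WT and 38.9, 44.9, 36.8 and 37.9 in KI, which is a log2 fold change of 3.66 ± 0.23 (adjusted p = 1.0e-08). All edited libraries were far above the highest WT library for this gene. *Slc41a2*, a magnesium transporter, was at 18.2, 17.3, 14.7 and 19.3 CPM in the KO libraries, 0.312, 1.05 and 1.20 in WT and 5.65, 6.01, 5.65 and 3.89 in KI, and here KO lay above KI by 1.71 ± 0.23 on the log2 scale (adjusted p = 1.7e-05). *Zxdb*, a zinc-finger gene of the X chromosome, rose to the same degree in both lines, from 0.535, 0.968 and 0.389 CPM in WT to 4.88, 3.41, 4.92 and 4.53 in KO and 5.45, 3.34, 5.85 and 4.59 in KI (2.87 ± 0.32, adjusted p = 2.9e-06). *Gpr161*, a receptor of the primary cilium, rose by 3.07 ± 0.33 (adjusted p = 2.1e-06), and *Prr32* by 5.72 ± 0.51 (adjusted p = 3.5e-07) from 4 counts over the 3 WT libraries to 652 over KO and 290 over KI.

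**Figure D1:**
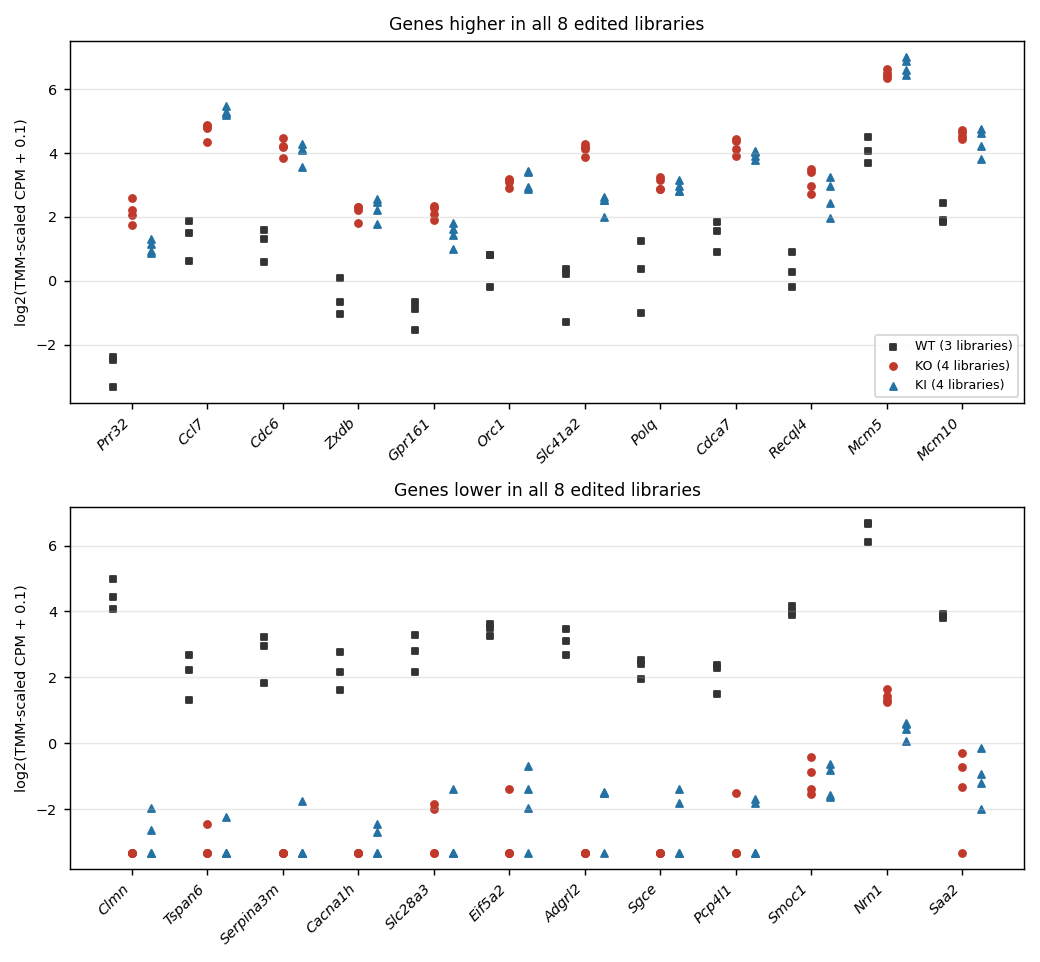
TMM-scaled CPM on a log2 scale (0.1 added) of the 12 genes with the largest shared rise (upper panel) and the largest shared fall (lower panel), each point 1 library (WT squares, KO circles, KI triangles). In the lower panel every edited library lies below the WT libraries of the same gene, and many lie at 0 counts; *Nrn1* kept the highest level in edited cells, up to 3.03 CPM in KO.

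Among the 12 genes that fell most, several were close to silent in both edited lines. *Clmn*, which encodes calmin, had 1796 counts over the 3 WT libraries, 0 over the 4 KO libraries and 8 over the 4 KI libraries. With a floor of 3 counts over the group, KO was at least 1132-fold lower. *Sgce* (epsilon-sarcoglycan, an imprinted gene) had 365, 0 and 16 counts in WT, KO and KI, and *Serpina3m*, a serine protease inhibitor, 493, 0 and 7. The corresponding bounds for KO were at least 239-fold and 329-fold lower. *Cacna1h*, a T-type calcium channel, and *Adgrl2*, an adhesion receptor, were also at 0 in all KO libraries, with 5 and 28 counts over KI and 360 and 657 over WT. *Tspan6*, a tetraspanin, kept 3 counts over KO and 4 over KI, against 320 over WT. In bulk RNA, fewer cells expressing a gene and less RNA per cell cannot be told apart. *Nrn1* (neuritin), the most abundant of the 12, was at 2.58, 2.37, 3.03 and 2.26 CPM in the KO libraries, 100.3, 103 and 69.1 in WT and 0.951, 1.41, 1.44 and 1.25 in KI, a log2 fold change of -5.65 ± 0.14 (adjusted p = 7.7e-13). *Smoc1*, a secreted calcium-binding protein, was at 0.280, 0.444, 0.240 and 0.644 CPM in the KO libraries, 15.8, 14.9 and 17.8 in WT and 0.224, 0.469, 0.235 and 0.547 in KI (-5.37 ± 0.25, adjusted p = 4.2e-10), and KO and KI were separated by only 0.16 ± 0.36 (adjusted p = 0.74). *Slc28a3*, a nucleoside transporter, *Eif5a2*, a translation factor, and *Pcp4l1* had 11 and 10, 10 and 35, and 11 and 14 counts over KO and KI, against 536, 819 and 321 over WT. Over all members, 65 had no count in any of the 4 KO libraries and 15 none in any of the 4 KI libraries. No edited library held a count for 6 members, and none of the 3 WT libraries for 14. The same counts over all genes tested are not given here, and a group with fewer libraries reaches 0 more easily. These numbers are therefore not compared between groups.

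DNA replication genes were the list with the largest share of members. Before S phase, the origin recognition complex, CDC6 and CDT1 load the MCM helicase onto replication origins, and many of these genes, together with those of nucleotide synthesis and mitosis, are transcribed under E2F factors as cells enter the cycle. Of 54 listed genes of DNA replication and mitosis, all tested, 52 rose and none fell, and 50 were above WT in all 8 edited libraries, against 13.9% of all genes. Their median log2 fold change was 1.30 (1.45 in KO, 1.26 in KI), compared with -0.04 for all genes. The exceptions were *Gins4* (-0.11 ± 0.14, adjusted p = 0.50) and *Rfc4* (0.41 ± 0.20, adjusted p = 0.099, but 0.046 without WT 7 and 0.0014 with library totals), which were not called, and *Gins1* and *Ccnb2*, which rose with overlap. The summed level of the list was 1674, 1443 and 1295 CPM in the WT libraries, 3809.9, 4150.4, 3694 and 3869 in KO and 3486, 3592, 3037 and 3054 in KI, without overlap between edited and WT libraries.

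Origin licensing genes were among those with the largest changes. *Cdc6* was at 14.2, 22.03, 18.1 and 18.6 CPM in the KO libraries, 2.94, 2.38 and 1.42 in WT and 17.5, 19.5, 16.9 and 11.9 in KI, a log2 fold change of 2.96 ± 0.24 (adjusted p = 1.4e-07). *Orc1*, a subunit of the origin recognition complex, rose by 2.68 ± 0.25 (adjusted p = 5.3e-07), and its 8 edited libraries (7.27 to 10.7 CPM) were all above the WT libraries (0.767 to 1.66 CPM). *Mcm5*, one of the helicase subunits, was at 86.02, 100.3, 82.5 and 92.1 CPM in the KO libraries, 22.4, 12.95 and 16.9 in WT and 119, 129, 97.3 and 88.04 in KI (2.51 ± 0.18, adjusted p = 2.8e-08). *Mcm10*, which helps to activate the helicase, rose by 2.44 ± 0.22 (adjusted p = 3.2e-07), and *Ccne1*, the cyclin E1 of the G1/S transition, by 2.72 ± 0.21 (adjusted p = 7.8e-08). KO and KI did not differ detectably for *Cdc6* (difference 0.15 ± 0.20), *Orc1* (-0.09 ± 0.20), *Mcm5* (-0.26 ± 0.15) or *Mcm10* (0.20 ± 0.19), but *Ccne1* was higher in KO by 0.79 ± 0.17 (adjusted p = 0.0014). Genes of repair and chromatin were named individually. *Polq* (DNA polymerase theta) rose by 2.60 ± 0.33 (adjusted p = 1.1e-05), the helicase gene *Recql4* by 2.66 ± 0.34 (adjusted p = 1.3e-05), *Cdca7* by 2.65 ± 0.20 (adjusted p = 8.8e-08), and the DNA methylation maintenance genes *Uhrf1* and *Dnmt1* by 1.75 ± 0.15 and 1.43 ± 0.15 (adjusted p = 2.0e-07 and 2.1e-06). *Uhrf1* was higher in KO than in KI by 0.70 ± 0.14 (adjusted p = 6.1e-04). The list of DNA methylation and Polycomb genes that holds *Uhrf1* and *Dnmt1* had 6 of 23 genes higher, 3 lower, 14 not called and a median of 0.06. Over all genes tested, 25.1% were called higher and 28.2% lower. Within the replication list, 23 genes also differed between KO and KI. Replication-dependent histone genes, whose mRNAs mostly lack a poly(A) tail, did not follow: of 42 tested none rose and 9 fell (5 with library totals), a share below the 28.2% of all genes, and one of those that fell was *H1f2* (-2.14 ± 0.11, adjusted p = 1.1e-09).

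**Figure D2:**
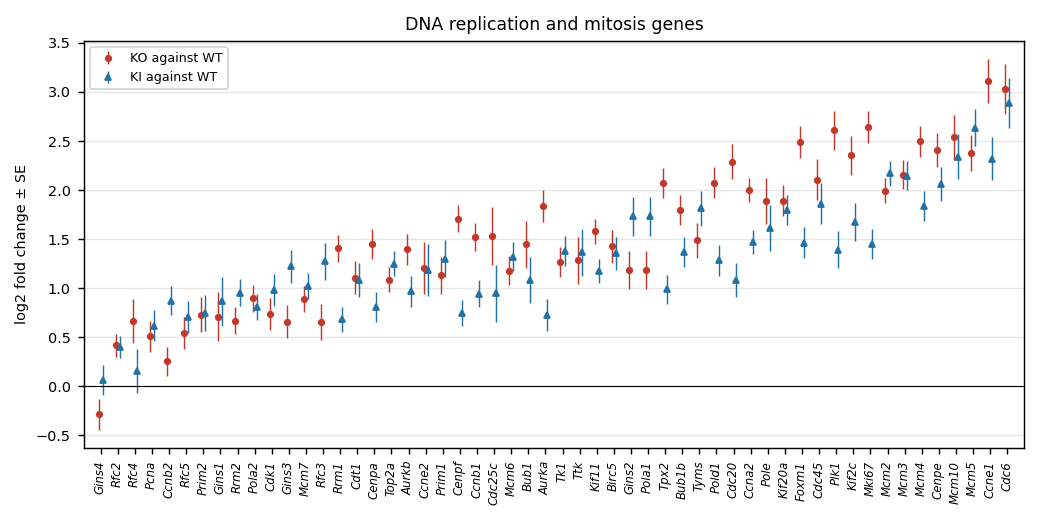
Log2 fold change with its SE of the 54 DNA replication and mitosis genes for KO against WT (circles) and KI against WT (triangles), in the order of their mean. All but *Gins4* had a mean above 0, up to 2.96 for *Cdc6*; both comparisons share the 3 WT libraries.

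Short stretches of RefSeq promoters (GRCm38.p6, + strand, 60 bases within the 250 before the transcription start) are shown for 4 of these genes, because E2F-type letters were found in them. The 4 E2F-type motifs searched on both strands were TTTGGCGC, TTTCCCGC, TTTCGCGC and TTTGCCGC, capitals mark them, and in *Mcm5* a pair of them on opposite strands overlap. Each stretch lies before the annotated start of its gene, at chr8:75109330-75109389 for *Mcm5*, chr11:98907987-98908046 for *Cdc6*, chr4:108579394-108579453 for *Orc1* and chr2:72476122-72476181 for *Cdca7*.
Mcm5: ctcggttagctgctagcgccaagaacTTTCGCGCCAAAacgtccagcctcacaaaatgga
Cdc6: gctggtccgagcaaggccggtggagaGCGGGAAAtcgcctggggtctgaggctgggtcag
Orc1: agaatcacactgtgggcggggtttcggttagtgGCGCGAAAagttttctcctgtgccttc
Cdca7: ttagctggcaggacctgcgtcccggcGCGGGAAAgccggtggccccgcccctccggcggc
In windows of 300 bases (250 before to 50 after the start), these motifs were present in 26.8% of 41 windows of the replication list, 6.76% of the windows of higher members, 2.06% of those of lower members and 3.85% of all 12997 windows of 10171 tested genes. All 4 motifs contain the letters CG, and the median number of CG per window was 24, 22, 18 and 20 in the same order. The part of CG content in the motif shares was not tested. The cell-cycle homology letters TTTGAA were present in 39.0% of the replication windows and 12.5% of all windows, and CCAAT in 73.2% and 38.4%. Overlaps of these matches with the E2F-type matches were not counted. A match describes the letters only, and binding was not measured.

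Genes of ribosome production moved in opposite directions. Ribosome biogenesis factors process ribosomal RNA in the nucleolus, while the ribosomal protein genes encode the proteins of the finished particle. Of 37 genes in the list of MYC and ribosome biogenesis, 28 rose and 3 fell, 27 and 1 of them on one side of WT, with a median of 0.98. *Utp20* was at 43.5, 61.8, 53.7 and 59.1 CPM in the KO libraries, 8.87, 8.92 and 12.5 in WT and 45.1, 46.6, 58.8 and 29.4 in KI (2.29 ± 0.21, adjusted p = 3.7e-07). *Bop1* rose by 1.75 ± 0.12 (adjusted p = 3.2e-08) and *Srm* (spermidine synthase) by 2.21 ± 0.16 (adjusted p = 3.7e-08). *Myc* itself was not called (0.20 ± 0.10, adjusted p = 0.11), though it was with library totals (adjusted p = 0.0026), and *Mycn*, *Npm1* and *Pno1* were the 3 that fell, of which *Pno1* lost its call with library totals (adjusted p = 0.24). *Mycn* was at 0.252, 1.24, 0.660 and 0.230 CPM in the KO libraries, 2.94, 3.07 and 3.01 in WT and 0.0559, 0, 0 and 0 in KI. The summed level of this list did not separate the groups, with 4382, 3579.5 and 3087 CPM in WT, 3864, 3939, 3565 and 3739 in KO and 4652, 4641, 4111 and 4208 in KI. *Npm1* (nucleophosmin) alone was at 702, 600.0, 589 and 535 CPM in the KO libraries, 2095, 1443 and 1116 in WT and 1159, 1091, 949.9 and 955 in KI, and this gene overlapped between edited and WT libraries.

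The E-box letters CACGTG, a palindrome that MYC family factors can recognise, were present in 25.6% of 39 windows of the biogenesis list and 9.65% of all windows. They are shown in capitals for 2 members of the list that rose, *Nop2* (1.42 ± 0.13, chr6:125131796-125131855) and *Rrn3* (1.18 ± 0.15, chr16:13780457-13780516), both on the + strand and upstream of the start.
Nop2: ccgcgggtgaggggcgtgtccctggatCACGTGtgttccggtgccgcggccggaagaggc
Rrn3: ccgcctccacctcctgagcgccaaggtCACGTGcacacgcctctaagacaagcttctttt

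Cytosolic ribosomal protein genes fell by nearly the same amount in both lines. Of 82 tested, 69 fell and 1 rose (*Rpl18*, 0.29 ± 0.11, adjusted p = 0.035), and 38 were below WT in all 8 edited libraries, against 12.6% of all genes. The call of *Rpl18* was lost without KO 5, KO 6, WT 7, WT 8, KI 5 or KI 6 (adjusted p = 0.057, 0.058, 0.076, 0.051, 0.059 and 0.068) and with upper-quartile scaling (0.080). It was also lost without the low-count filter (0.057), with 10 or more counts required in every library (0.056) and with a replicate block (0.19). The median was -0.86 (-0.86 in KO, -0.85 in KI). *Rpl7* was at 1906, 1534, 1635 and 1305 CPM in the KO libraries, 5527, 5166 and 2984 in WT and 1512, 1555, 1232 and 1779 in KI (-1.55 ± 0.17, adjusted p = 2.3e-06), and *Rpl26* at 14.05, 18.8, 12.4 and 11.7 CPM in the KO libraries, 86.9, 70.04 and 43.2 in WT and 19.6, 21.8, 16.3 and 31.3 in KI (-1.91 ± 0.20, adjusted p = 1.7e-06). In each case WT 8 was the lowest WT library. The summed level was 125928, 103060.0 and 73784 CPM in WT 5-6, 7 and 8, 63242, 53902, 53297 and 47329 in KO and 54139.5, 59524, 48191 and 60111 in KI. Without WT 8 the number below WT rose from 38 to 59, while over all genes it rose from 1762 of 13948 to 2857 of 14300. Short transcripts as a whole were also lower. Over 4 equal classes of genes by transcript length (median 1239, 2188.5, 3223 and 5163 bases), the median log2 fold change was -0.24, 0.00, 0.07 and 0.13, and 708 other genes as short as the middle range of ribosomal protein genes had a median of -0.32. The part of transcript length in the ribosomal protein result was not tested beyond this. Reads of these genes may be shared with processed pseudogenes, so the single values are uncertain.

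**Figure D3:**
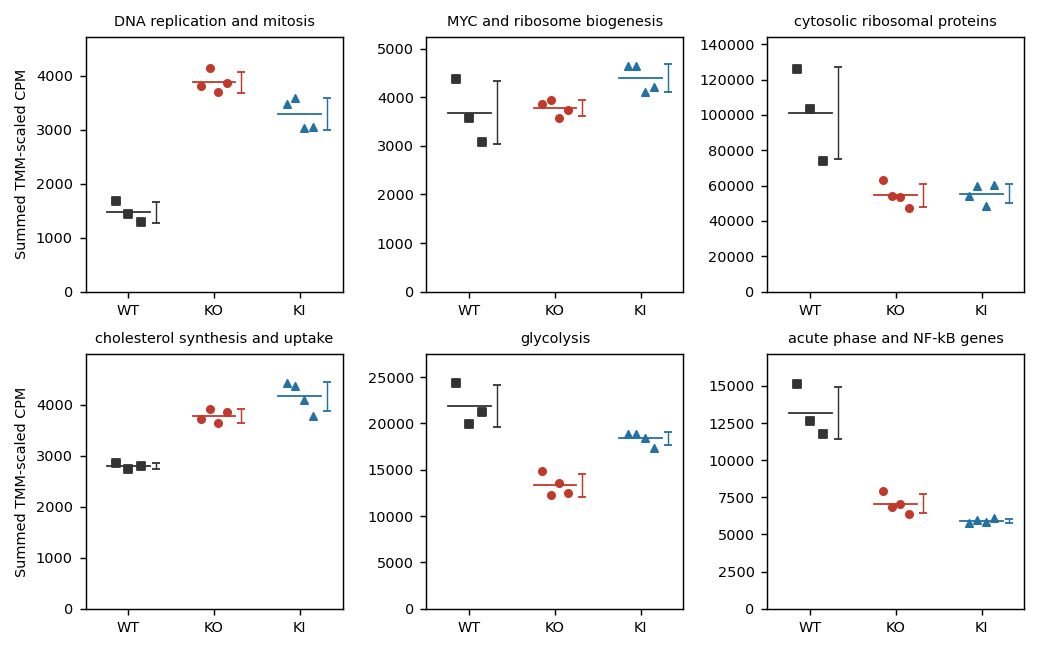
Summed TMM-scaled CPM of 6 gene lists in every library (points), with the group mean (line) and SD (bar beside it). Replication and cholesterol genes are higher and ribosomal protein, glycolysis and acute phase genes lower in edited cells, while the biogenesis list overlaps between groups.

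Energy metabolism genes were mostly lower. Glycolysis breaks down glucose in the cytosol, whereas fatty acid oxidation and the respiratory chain work in the mitochondrion. Of 20 glycolysis genes, 14 fell and none rose, 10 of them below all WT libraries. *Pfkp*, a phosphofructokinase, was at 59.9, 58.5, 63.2 and 63.1 CPM in the KO libraries, 112, 128 and 189 in WT and 50.3, 42.3, 52.5 and 46.01 in KI (-1.40 ± 0.13, adjusted p = 3.7e-07). *Aldoc* and the pyruvate dehydrogenase kinase gene *Pdk1* fell by 1.17 ± 0.12 and 1.03 ± 0.10 (adjusted p = 9.5e-07 and 1.1e-06), with KO and KI apart by only 0.07 ± 0.13 and 0.01 ± 0.11. *Slc16a3*, a lactate exporter, fell mainly in KO (-4.73 ± 0.20 against -0.58 ± 0.17 in KI), and *Eno2* fell more in KO than in KI as well (-1.54 ± 0.17, adjusted p = 2.9e-06). Of 27 fatty acid oxidation genes, 15 fell and 1 rose (*Cpt1c*), 7 of them below WT, with *Eci2* at 133, 105, 128 and 104 CPM in the KO libraries, 403, 295 and 260.3 in WT and 95.9, 101, 111 and 97.04 in KI (-1.55 ± 0.12, adjusted p = 1.0e-07). The call of *Cpt1c* was lost without KO 6, KO 8, WT 5-6, WT 8 or KI 6 (adjusted p = 0.058, 0.059, 0.20, 0.063 and 0.066) and with upper-quartile scaling (0.069). The fatty acid transporter gene *Cd36* fell in both lines, from 129, 141 and 72.1 CPM in WT to 6.39, 3.97, 5.49 and 4.97 in KO and 7.75, 8.46, 7.32 and 9.88 in KI (-4.11 ± 0.17, adjusted p = 1.1e-10). Of 83 nuclear genes of oxidative phosphorylation, 46 fell and 3 rose (*Ndufa12*, *Ndufs5* and *Sdhb*), 19 of the former below WT. Without WT 8, 46 were below WT, beside 2857 of all 14300 genes tested. The call of *Sdhb* was lost without WT 7 (adjusted p = 0.11), and that of *Ndufa12* without KO 5, KO 6, KO 7, WT 7, KI 5, KI 6 or KI 7 (adjusted p = 0.073, 0.073, 0.056, 0.25, 0.075, 0.080 and 0.054) or with upper-quartile scaling (0.083). *Ndufa12* also lost it with 10 or more counts required in every library (0.061), without newly assembled genes (0.051) and with DESeq2 (0.0504). With a replicate block, all 3 genes that rose lost their call (0.11 for *Ndufa12* and *Ndufs5*, 0.12 for *Sdhb*). *Ndufa6* (complex I) fell by 1.53 ± 0.17 and *Uqcrh* (complex III) by 1.24 ± 0.18 (adjusted p = 3.1e-06 and 3.1e-05). With library totals instead of TMM, the genes called lower in these 3 lists were 7, 7 and 28, and those below WT 5, 2 and 8, so the size of these groups depended on the scaling. Over all 13948 genes, 2148 were then called lower and 864 were below WT.

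Cholesterol synthesis genes were higher. These enzymes, with the LDL receptor pathway, are switched on by SREBP2 when sterols are low. Of 27 genes, 20 rose and 1 fell, with 11 above WT and a median of 0.44 (0.48 in KO, 0.55 in KI). *Hmgcs1* was at 276, 301, 275 and 296 CPM in the KO libraries, 97.8, 113 and 138 in WT and 333, 299, 304 and 218 in KI (1.31 ± 0.14, adjusted p = 2.2e-06), and KO and KI differed by -0.01 ± 0.14. *Hsd17b7*, an enzyme of the same pathway, rose by 1.22 ± 0.13 (adjusted p = 2.0e-06). *Insig2*, which retains SREBP in the endoplasmic reticulum, was the gene that fell, from 165, 153 and 121 CPM in WT to 66.2, 57.98, 66.3 and 50.6 in KO and 72.3, 67.1, 64.4 and 77.4 in KI (-1.17 ± 0.11, adjusted p = 6.5e-07). Of 20 cytosolic aminoacyl-tRNA synthetase genes, 16 rose and 1 fell, 8 and 1 on one side. Without WT 8, 13 were above WT, beside 2945 of all 14300 genes tested. *Tars* rose by 1.19 ± 0.12 (adjusted p = 9.7e-07), while *Dars* fell by 1.36 ± 0.16 (adjusted p = 6.0e-06). Amino acid response genes under ATF4 (25 tested, 17 higher, 4 lower, 8 above WT) had a median of 0.88 in KO and 0.15 in KI. In that list *Slc7a5*, an amino acid transporter, rose from 15.9, 13.96 and 15.3 CPM in WT to 64.96, 90.2, 76.6 and 92.97 in KO and 31.2, 28.6, 28.99 and 22.9 in KI (1.66 ± 0.14, adjusted p = 2.1e-07), and *Mthfd2* by 1.47 ± 0.15 (adjusted p = 1.0e-06), both higher in KO than in KI (adjusted p = 1.8e-07 and 2.6e-05).

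**Figure D4:**
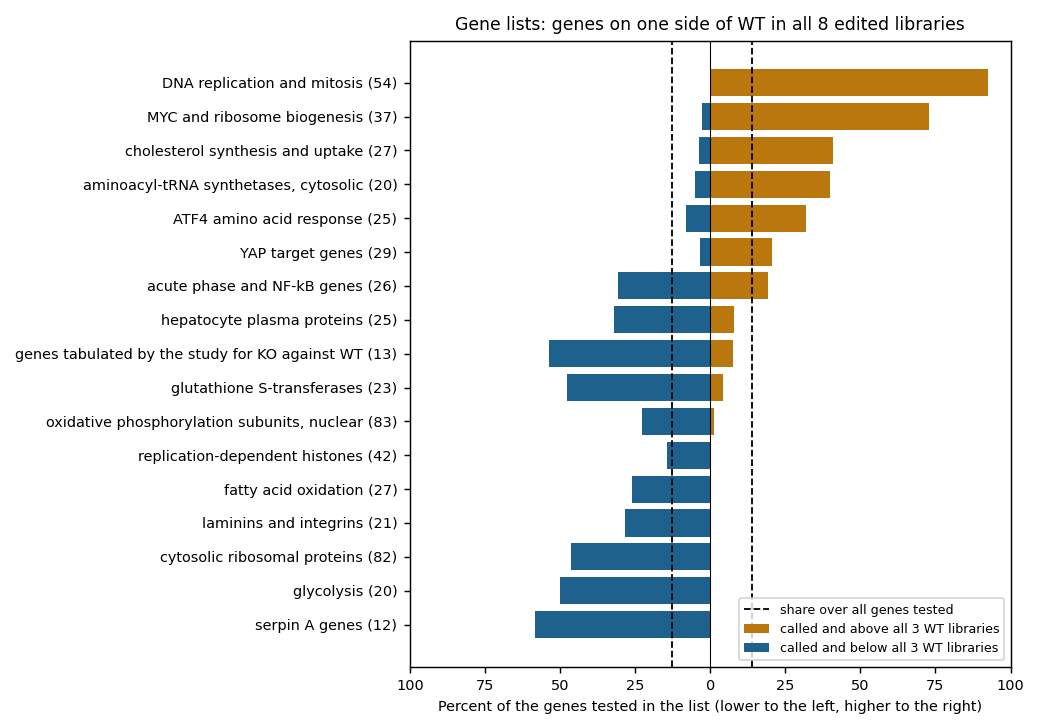
Percent of the tested genes of each list (number in parentheses) that were called and above all 3 WT libraries (right) or below them (left) in all 8 edited libraries. The dashed lines mark the share over all genes tested, 13.9% higher and 12.6% lower; the replication list reaches furthest to the right.

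Genes of the acute phase and of glutathione conjugation were mostly lower. Serum amyloid A, haptoglobin and lipocalin 2 are secreted by hepatocytes in inflammation. Of 26 acute phase and NF-kB genes, 15 fell and 7 rose. The 8 below WT were *Saa1*, *Saa2*, *Saa3*, *Lcn2*, *Orm1*, *Hp*, *Cxcl1* and *Icam1*, and the 5 above were *Ccl7*, *Nfkb1*, *Relb*, *Tnfaip3* and *Socs3*, of which the last 4 are NF-kB subunits or induced feedback genes. The call of *Icam1* was lost with library totals (adjusted p = 0.14). *Saa1* was at 0.477, 0.563, 0.900 and 0.0920 CPM in the KO libraries, 27.2, 24.1 and 18.1 in WT and 0.867, 0.689, 0.863 and 2.13 in KI (-4.95 ± 0.33, adjusted p = 2.0e-08), and *Saa2*, which is near-identical and may share its reads, fell by 5.16 ± 0.43 (adjusted p = 1.8e-07). *Lcn2* was at 1439, 1409, 1370.2 and 1436 CPM in the KO libraries, 3242, 2736 and 4159 in WT and 996, 1049, 1093 and 1026 in KI (-1.48 ± 0.12, adjusted p = 1.0e-07). *Hp* fell in both lines but further in KI, with 991, 718 and 686 CPM in WT, 406, 283, 341 and 281 in KO and 73.6, 86.7, 73.1 and 82.3 in KI (KO above KI by 2.05 ± 0.15, adjusted p = 2.8e-08). Of 23 glutathione S-transferase genes, 17 fell and 4 rose, 11 below and 1 (*Gstm2*) above WT. *Gstt2* was at 3.14, 1.87, 2.25 and 2.14 CPM in the KO libraries, 24.3, 16.7 and 15.7 in WT and 4.92, 3.86, 4.05 and 4.29 in KI (-2.57 ± 0.17, adjusted p = 1.5e-08). Of 12 serpin A genes, 10 fell and none rose, 7 of them below WT. Their median was -4.79, or -4.20 with the 3 genes at 0 in KO set to their bound, and *Serpina3n* fell from 35.1, 22.2 and 27.3 CPM in WT to 0.393, 0.0888, 0.150 and 0.0920 in KO and 2.41, 2.07, 1.28 and 1.64 in KI. Members of these families are close in sequence, and their counts may be shared.

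Hepatocyte markers moved in both directions. Of 11, 4 rose and 4 fell, against 25.1% and 28.2% of all genes tested. *Alb* (albumin) was at 4767, 3813, 4290.1 and 3589 CPM in the KO libraries, 739, 426 and 373 in WT and 263, 258, 302 and 159.9 in KI, so that it rose in KO (3.00 ± 0.26) and fell in KI (-1.06 ± 0.23), and its mean change was called without the gene being a member. *Trf* (transferrin) was below WT in all edited libraries (-1.11 ± 0.15, adjusted p = 2.7e-05) and *Apob* above (0.95 ± 0.13, adjusted p = 1.8e-05). Of 25 genes of hepatocyte plasma proteins, 8 rose and 10 fell, 2 and 8 on one side, with a median of 0.63 in KO and -0.88 in KI. Over all genes tested, 25.1% rose and 28.2% fell, and 13.9% and 12.6% were on one side. Of 17 liver-enriched transcription factors tested, 4 rose and 7 fell, 1 and 3 on one side. Among them, *Nr5a2* fell to 1.18, 1.45, 1.32 and 1.47 CPM in KO and 1.15, 0.662, 0.601 and 0.639 in KI from 7.49, 7.55 and 10.02 in WT (-3.03 ± 0.22, adjusted p = 3.7e-08). *Foxa1*, with 47 counts over the WT libraries, rose by 2.04 ± 0.32 (adjusted p = 7.8e-05). Of 6 cholangiocyte markers tested, none rose and 4 fell, with a median of -1.84 in KO and -0.30 in KI, and their summed level was 1374 to 1531 CPM in KO, 3054 to 4419 in WT and 2648 to 3130 in KI. Among them, the biliary keratin gene *Krt7* was below WT in both lines (-3.38 ± 0.11 in KO, -0.59 ± 0.11 in KI). Of markers of other liver cells, no endothelial gene of 9 passed the filter, the 2 stellate or fibroblast genes tested summed to at most 1.04 CPM, and the 4 macrophage and blood genes tested summed to 7.27 to 9.56 CPM in WT, 2.10 to 3.50 in KO and 3.66 to 7.45 in KI. The part of such cells in the lists above was not tested. Of 29 YAP target genes 11 rose and 2 fell (6 and 1 on one side). Without WT 8, 10 YAP targets were above WT, beside 2945 of all 14300 genes tested. Of 21 laminin and integrin genes 2 rose and 11 fell (0 and 6 on one side). *Lamb3*, a laminin chain, fell by 2.64 ± 0.09 (adjusted p = 1.6e-11).

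The chromosomal position of genes went with their direction. Chromosomes were assigned by gene name in the GENCODE M21 annotation to 97.7% of the annotated genes tested. For each library, the median over a chromosome's genes of log2(CPM/WT mean CPM) was taken relative to all genes. The WT libraries lie around 0 by construction, since they make up the WT mean, and their range was -0.11 to 0.07. On chromosome 14 this median was -0.41 to -0.35 in the KO libraries and -0.44 to -0.40 in the KI libraries, so that all 8 were alike, and 126 of 414 genes (30.4%) were members below WT while 19 were members above. Lower values were spread along the chromosome, with median log2 fold changes of -0.53, -0.37, -0.26 and -0.34 over its 4 equal parts by gene order. Chromosome 19 was lower in both lines (-0.34 to -0.31 in KO, -0.23 to -0.21 in KI) and so was chromosome 11 (-0.37 to -0.35 and -0.12 to -0.11). Chromosomes 3 and 4 were higher, at 0.10 to 0.14 and 0.29 to 0.33 in KO and 0.25 to 0.29 and 0.14 to 0.20 in KI, with 25.5% and 24.5% of their genes above WT. On chromosome 3 the first of 4 such parts had a median of -0.10, and the other 3 had 0.24, 0.31 and 0.31. Of 20 chromosomes, edited libraries lay below WT on 4 and above WT on 4. On 5 of these the value was at least 0.1 from 0 in every edited library. Chromosome 3 is among the 5, and there the highest WT library was at 0.06. Chromosome 7 was higher mainly in KO (0.49 to 0.55, against 0.08 to 0.13 in KI), and chromosome 16 was at 0.41 to 0.46 in KO and -0.09 to 0.00 in KI. DNA copy number was not measured.

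**Figure D5:**
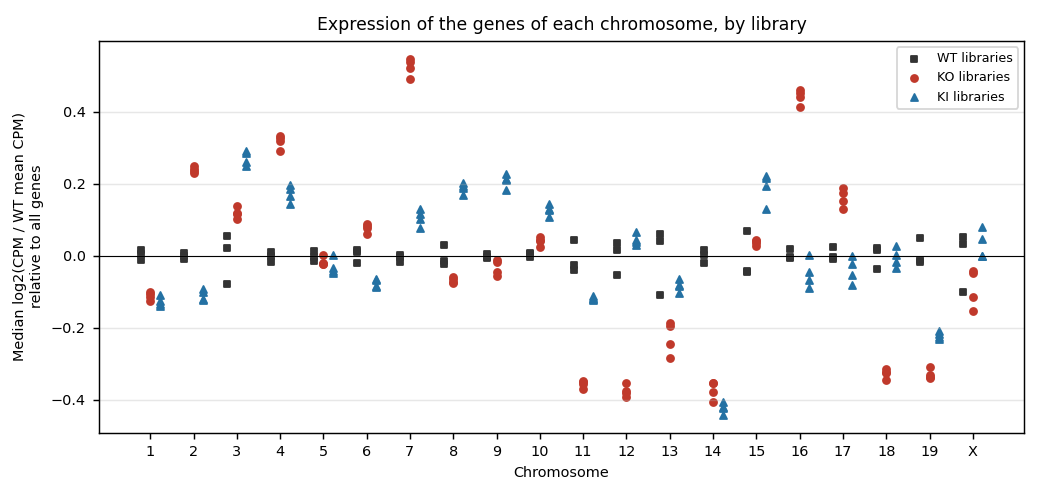
Median log2 ratio of CPM to the WT mean over the genes of each chromosome, relative to all genes, in every library (WT squares, KO circles, KI triangles). On chromosome 14 the 8 edited libraries lie between -0.44 and -0.35. The WT libraries lie around 0 by construction, as the ratio is to their own mean.

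KO and KI differed in 6383 of 13948 genes (45.8%). The member rule needs both lines on the same side of WT and so leaves out genes in which KO and KI part around WT, such as *Alb*. The shares in members are therefore a description, with nothing read from their distance to the other genes: 1463 of 3701 members (39.5%) and 4920 of 10247 other genes (48.0%) differed between the lines. The median absolute KO-KI difference was 0.316 on the log2 scale in members and 0.426 in all genes, and 2472 members (66.8%) had a difference under 0.5. Of the higher members that differed, 539 were higher in KO and 221 in KI. Of the lower members that differed, 545 were lower in KO and 158 in KI. The split by direction over all 6383 genes that differed is not given here, so nothing particular to members is read from these counts. Against WT alone, KO had 7929 genes called (56.8%) and KI 6394 (45.8%), and 3287 members were called in both lines, 251 in KO only, 139 in KI only and 24 in neither.

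The 13 genes that the study tabulated for KO against WT were set beside KI. They were chosen on KO and WT libraries of this series and are no independent evidence of direction. In the mean of both lines 2 rose and 11 fell, and 8 were members: *Dnaja3* above WT, and *Rps14*, *Gstm6*, *Gstp3*, *Gstt1*, *Oplah*, *Prdx5* and *Serpina3m* below. The median was -1.91 in KO and -0.59 in KI. *Gstp3* fell further in KI (1.93, 2.45, 1.07 and 1.37 CPM) than in KO (7.15, 4.47, 5.13 and 5.29), from 27.1, 19.9 and 24.1 in WT (-2.95 ± 0.19, adjusted p = 1.4e-08; KO above KI by 1.69 ± 0.24, adjusted p = 2.9e-05). *Prdx5*, a peroxiredoxin, was at 413, 335, 331 and 302 CPM in the KO libraries, 1592, 1357 and 949.9 in WT and 621, 718, 561 and 803 in KI (-1.43 ± 0.15, adjusted p = 1.5e-06). The study tabulated this gene as lower in KO by RNAseq but reported it as increased in KO by RT-qPCR, and it states that the methods differed for *Prdx5*. In contrast, *Serpina1a* and *Serpina1b* fell in KO (-3.76 ± 0.36 and -2.29 ± 0.29) and had values of 0.52 ± 0.31 and 0.59 ± 0.27 in KI, while *Hsp90aa1*, *Mfn2* and *Npm1* overlapped between edited and WT libraries. KO and KI differed in 11 of the 13; the others were *Serpina3m* and *Gstm6*. The call of *Serpina1b* was lost without WT 5-6 (adjusted p = 0.074) and with library totals (0.11).

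Genes commonly used as references were not constant between edited and WT cells. Of 14, 5 rose and 7 fell, 4 and 5 on one side of WT, where 25.1% and 28.2% of all genes tested rose and fell. *Tbp*, which the study's methods use with *Ppib* for RT-qPCR normalization, was at 29.7, 27.3, 27.04 and 26.9 CPM in the KO libraries, 21.4, 16.3 and 22.7 in WT and 27.5, 27.4, 26.7 and 27.5 in KI (0.45 ± 0.11, adjusted p = 0.0038), and *Ppib* was not called (-0.35 ± 0.16, adjusted p = 0.079). Without KO 5, WT 8 or KI 8, *Ppib* was called lower (adjusted p = 0.043, 0.0044 and 0.048), as it was with upper-quartile scaling (0.048) and with DESeq2 (0.045). *Actb* rose by 0.83 ± 0.13 (adjusted p = 7.3e-05) and *Pgk1* fell by 1.39 ± 0.13 (adjusted p = 6.4e-07). *Sdha* fell by 0.33 ± 0.09 (adjusted p = 0.0089) but was at 0.03 with library totals, where *Eef2* and *Rplp0* (-0.44 ± 0.11 and -0.52 ± 0.12 with TMM) were no longer called.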

How the data were processed

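RNA of KO (n = 4), WT (n = 3) and KI (n = 4) AML12 cells was measured by polyadenylated RNA sequencing, with no strand marking stated. The authors deposited 1 table with raw read counts per gene and library, made with HISAT2, Bowtie2, TopHat2 and StringTie by the submitters' processing notes; versions, roles and the genome build are not given in the sources used here. Of 26472 lines, 10 without counts were left out and entries of 1 name were summed to 24849 genes, 2960 of the entries being newly assembled transcripts. Columns of FPKM (11) and of the authors' own comparisons (9, with fold changes and p-values) were not used. Total counts were 30380360 to 38422243 in KO, 29840366 to 30364098 in WT and 32360709 to 35335070 in KI, so that counting error is small for genes above a few CPM.

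Groups came from the genotype labels. Whether replicates were separate cultures is not stated, and p-values measure the spread between these libraries, which may be technical. No pair of libraries agreed within counting noise. Counts were filtered with filterByExpr, TMM-scaled and fitted in 1 model of 3 groups with the robust quasi-likelihood test of edgeR 4.0.16 (R 4.3.3), with the contrasts (KO + KI)/2 - WT, KO - WT, KI - WT and KO - KI, and Benjamini-Hochberg adjustment over 13948 genes. Log2 fold changes are given ± SE. Members and gene lists were chosen with earlier results of these data known. Genes were named by a rule: *Txndc5*, the 12 that rose and 12 that fell with the largest smaller-of-both-lines change among members (4 CPM or more in a group, annotated symbols), up to 4 called genes of each list, genes needed to account for a count, the 13 genes the study tabulated and reference genes. LOC115486443 was named as a gene at the threshold, and certain genes are not reported here. Fitting was tested on simulated data. Alternatives were other scalings and filters, newly assembled genes left out, separate entries, a replicate block, limma 3.58.1, DESeq2 1.42.0 and leaving out each library.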

Additional observations from a re-analysis of the deposited data

Results flagged for a closer look

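In 15 of 203 groups of 4 libraries tested over 104 named genes, 1 library was farther from the other 3 than Dixon's 95% critical value for 4 samples allows, where chance alone flags about 1 in 20 groups. The library stood apart as the highest of its group for *Cpt1c* in KI 6 at 9.04 CPM, *Eif5a2* in KO 5 at 0.280 CPM, *Mycn* in KI 5 at 0.0559 CPM, *Nr5a2* in KI 5 at 1.15 CPM, *Pcp4l1* in KO 8 at 0.253 CPM, *Saa1* in KI 8 at 2.13 CPM, *Serpina3m* in KI 5 at 0.196 CPM, *Slc28a3* in KI 5 at 0.280 CPM, *Srm* in KI 6 at 30.7 CPM, *Tbp* in KO 5 at 29.7 CPM, *Tspan6* in KO 5 at 0.0841 CPM and *Tspan6* in KI 6 at 0.110 CPM. The library stood apart as the lowest of its group for *Adgrl2* in KI 8 at 0 CPM, *Gstt1* in KI 8 at 136 CPM and *Tbp* in KI 7 at 26.7 CPM. For *Tspan6*, *Mycn*, *Serpina3m*, *Slc28a3*, *Pcp4l1* and *Eif5a2* the group summed to 11 counts or fewer.

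KO and KI differed in 56 of the 104 named genes, beside 6383 of all 13948 genes tested (45.8%). The contrast was KO minus KI (edgeR quasi-likelihood test, Benjamini-Hochberg over 13948 genes), and values are given as log2 differences of KO minus KI. The value was positive, with KO above KI, for *Mthfd2* (1.00), *Nrn1* (1.01), *Prr32* (1.15), *Slc7a5* (1.54), *Gstp3* (1.69), *Slc41a2* (1.71), *Saa3* (2.05), *Hp* (2.05), *Alb* (4.07) and *Mycn* (5.07), and by less than 1 for *Icam1* (0.31), *Pfkp* (0.36), *Relb* (0.42), *Lcn2* (0.44), *Mfn2* (0.51), *Srm* (0.53), *Rpl18* (0.58), *Gpr161* (0.68), *Uhrf1* (0.70), *Ccne1* (0.79), *Nr5a2* (0.83), *Gstm2* (0.88) and *Dnaja3* (0.90). It was negative, with KO below KI, for *Hsp90aa1* (-1.08), *Saa1* (-1.19), *Lamb3* (-1.38), *Eno2* (-1.54), *Gstt1* (-2.54), *Krt7* (-2.79), *Serpina1b* (-2.88), *Serpina3n* (-3.34), *Txndc5* (-4.04), *Slc16a3* (-4.14), *Serpina1a* (-4.28), *Sgce* (-4.96) and *Adgrl2* (-5.71), and by less than 1 for *Nop2* (-0.31), *Socs3* (-0.37), *H1f2* (-0.39), *Tnfaip3* (-0.42), *Rps14* (-0.48), *Myc* (-0.52), *Pno1* (-0.52), *Apob* (-0.53), *Ccl7* (-0.58), *Ccnb2* (-0.62), *Rpl26* (-0.64), *Cd36* (-0.68), *Nfkb1* (-0.70), *Ndufa6* (-0.72), *Pgk1* (-0.77), *Npm1* (-0.78), *Gstt2* (-0.86), *Oplah* (-0.91), *Prdx5* (-0.97) and *Orm1* (-0.98). *Adgrl2* and *Sgce* had no count in KO, and *Mycn* 2 counts over KI, so that their fitted differences depend on the prior count.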

How the results depend on the processing

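Calls for edited against WT stayed within 1.5 times of 7431 with another scaling, another filter, separate table entries, limma or DESeq2 (6614 to 7989), and were 2606 with an absolute log2 fold change over 1. Leaving out each library gave 6166 (without WT 7) to 8159 (without WT 8) calls for edited against WT, 6970 to 8551 for KO, 5191 to 7263 for KI, 5613 to 7276 for KO against KI, and 46.9 to 49.99% of calls higher. Genes that fulfilled the member rule numbered 3714 to 5802 in these fits, and 5802 was the count without WT 8. Deviations of same-numbered libraries of different groups had correlations of -0.19 to 0.21, and those of different-numbered libraries -0.20 to 0.17. The highest value was that of KO 8 with WT 8. The WT library labelled with a range of numbers was counted as different-numbered. With so few libraries in a group, such correlations cannot exclude pairing, so whether the numbers pair the samples was not decided. With the number as a replicate block, calls were 4764 for edited against WT, 5826 for KO and 3819 for KI. The 10 named genes that lost their call were *Cpt1c*, *Mfn2*, *Ndufa12*, *Ndufs5*, *Pno1*, *Rpl18*, *Sdha*, *Sdhb*, *Serpina1b* and *Tnfaip3*.

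With library totals in place of TMM, 73.1% of calls were higher, 3349 genes above and 864 below WT fulfilled the member rule, and the direction of *Sdha* turned (0.0303). In the gene lists, 18 YAP targets were then called higher, and 18 cholesterol and 13 tRNA synthetase genes were above WT. Called lower were 7 fatty acid oxidation, 7 glycolysis, 6 laminin and integrin, 28 oxidative phosphorylation and 5 histone genes. Over all 13948 genes, 5841 were then called higher and 2148 lower. Below WT were 5 plasma protein, 2 fatty acid oxidation, 5 glycolysis, 3 laminin and integrin, 8 oxidative phosphorylation and 3 histone genes. Without WT 8, an alternative added after the data were seen, 10 YAP targets and 13 tRNA synthetase genes were above WT, 59 ribosomal protein and 46 oxidative phosphorylation genes were below it, and the median of chromosome 1 relative to all genes was -0.0782. In that fit, 2945 of all 14300 genes tested were above WT and 2857 below it. The cause of these changes was not tested. Of 1957 values of the 104 named genes under all alternatives, 1905 kept direction and call. Depth was 29840366 counts or more in every library, and WT had 3 libraries. Which of these limits the precision was not tested.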
